A study of Arabidopsis thaliana with 12 samples.

Results

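The effect of the *MtPHD6* transgene on Arabidopsis rosette leaves under drought was read from 6 of the 12 RNA-seq libraries of the study. They were the 3 libraries of transgenic plants deprived of water (PHD6-drought) and the 3 libraries of wild-type Columbia plants deprived of water (WT-drought), taken by their labels and not by a measured value. Entries of the count table that carried a gene name were kept, which were 36061 of 38082, and 19681 of these genes passed a filter on low counts and were tested. *MtPHD6* comes from the legume *Medicago truncatula* and was put into Arabidopsis with the pCAMBIA1301S vector. The plants were homozygous T3 lines, but the line of each library is not given, and the transcript of the transgene itself was not analysed here. The sample records state 10 days of treatment for every library, while the study's text gives a shorter drought. The remaining libraries, of watered plants with (PHD6-control) and without (WT-control) the transgene, were used only to set the effect under drought beside that in watered plants. The question put to the 6 drought libraries was which genes the transgene moved once water was withheld.

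MtPHD6 belongs to the Alfin1-like proteins, a plant family named after an alfalfa protein that binds DNA. Its PHD finger is a zinc-binding fold that in many proteins recognises methylated histone tails. Drought sets off synthesis of the hormone abscisic acid (ABA), which closes stomata through receptors, phosphatases and kinases, while growth by cell wall loosening and water uptake through aquaporins slows down. Defence through salicylic acid, cell surface receptors and WRKY factors is a separate branch of the leaf's responses.

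The drought libraries held 18065154 to 23384147 counts over named genes. Levels are given as CPM, counts scaled to library size after normalization by trimmed means (TMM), and changes as log2 fold changes of PHD6-drought over WT-drought with their standard error (SE). A gene was called when edgeR's quasi-likelihood test gave an adjusted p under 0.05 over all genes tested. By this rule 521 genes rose (2.65% of genes tested) and 765 fell (3.89%). Groups of libraries did not overlap in 28.5% of all genes tested. They did not overlap in any called gene (521 of 521 rises and 765 of 765 falls), so this trait adds nothing to a call. At an unadjusted p under 0.05, 2171 of the 19681 genes tested were higher and 2272 lower. Counts of list members at that unadjusted p are to be read beside these. A call that did not depend on one library, so that it also passed when any single library was left out, was reached by 61 of the rises and 149 of the falls, together 1.07% of genes tested. The first principal component of the 6 libraries held 46.8% of the variance and separated the genotypes, and the second held 24.5% and set PHD6-drought replicate 1 apart. Among the 4 mesophyll markers *RBCS1A*, *LHCB1.1*, *RCA* and *CA1*, summed levels ran from 17180 to 21410 CPM in PHD6-drought and from 21590 to 23690 CPM in WT-drought. Of the 8 root markers *COBL9*, *EXPA7*, *CASP1*, *MYB36*, *TIP2;3* and *WER* were at 0 to 0.598 CPM, while *SCR*, at 27.0 to 33.1 CPM in the 6 libraries, and *SHR*, at 14.8 to 18.03 CPM in PHD6-drought and 10.0 to 13.4 CPM in WT-drought (log2 fold change 0.44, adjusted p = 0.0798), were expressed. The 5 seed markers were at or near 0.

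**Figure D1:**
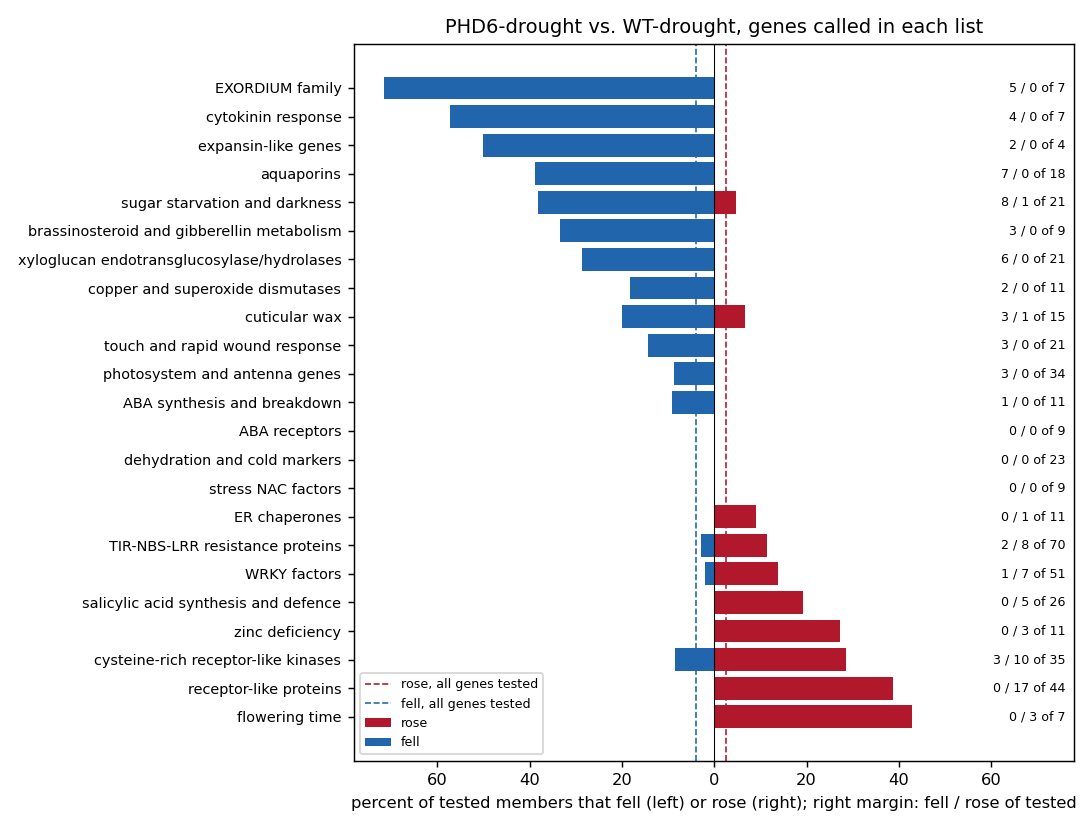
Share of the tested members of selected gene lists that fell (bars to the left) or rose (bars to the right) in PHD6-drought against WT-drought, in percent, with the counts at the right margin. Dashed lines mark the shares over all genes tested, 3.89% for falls and 2.65% for rises. Among the lists drawn, which leave out the qRT-PCR genes, the longest bars to the left belong to the EXORDIUM family and cytokinin response, and those to the right to flowering time and receptor-like proteins.

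Among the largest falls were genes of cell wall loosening and growth. *PHI-1* (AT1G35140), of the EXORDIUM family of secreted proteins that promote cell expansion, had 106, 32.3 and 25.2 CPM in WT-drought replicates 1 to 3 and 3.42, 4.64 and 2.57 CPM in PHD6-drought. Every transgenic library lay far below every wild-type library, and WT-drought replicate 1 was the highest of the 6. The log2 fold change was -3.91 (SE 0.56, adjusted p = 0.00932). Within the EXORDIUM family 5 of the 7 genes tested fell, with a median log2 fold change of -1.09 against 0.01 over all genes tested. *EXO* (AT4G08950), the founding member, had 256, 97.6 and 75.4 CPM in WT-drought and 35.4, 34.2 and 24.8 CPM in PHD6-drought, for a log2 fold change of -2.17 (SE 0.40, adjusted p = 0.0189). *EXL3* and *EXL5* fell by 1.09 and 1.34 on the log2 scale. *PHI-1* and *EXL3* were called without any single library as well, whereas *EXO* had adjusted p = 0.0651 when PHD6-drought replicate 2 was omitted and 0.0502 when replicate 3 was, and the family held between 2 and 5 calls when single libraries were left out.

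Most enzymes that cut and rejoin xyloglucan, the tether between cellulose fibrils, had lower levels. Of 21 xyloglucan endotransglucosylase/hydrolases tested, 6 fell, 19 had a negative log2 fold change, and the median was -0.47. *TCH4* (AT5G57560), a member induced by touch, had 348, 130.4 and 110 CPM in WT-drought and 38.6, 39.8 and 33.4 CPM in PHD6-drought, for a log2 fold change of -2.39 (SE 0.39, adjusted p = 0.0122). It is counted with the touch response genes. *XTH33* had 18.7, 7.89 and 8.71 CPM in WT-drought and 2.61, 3.45 and 2.74 CPM in PHD6-drought. Wild-type replicate 1 was again the highest, and the groups did not overlap. The log2 fold change of *XTH33* was -1.99 (SE 0.33, adjusted p = 0.0129), and *XTH16*, *XTH17* and *XTH6* fell by 1.04, 1.53 and 0.75. Leaving out PHD6-drought replicate 1 gave 10 falls in the family, and leaving out PHD6-drought replicate 2 or WT-drought replicate 1 or 3 gave 3.

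Expansins loosen the wall without cutting it, and their members moved in opposite directions. All 4 expansin-like genes tested had lower levels in PHD6-drought and 2 of them fell. *EXLA1* (AT3G45970) had 184, 116 and 129.7 CPM in WT-drought and 34.6, 54.9 and 36.1 CPM in PHD6-drought, and *EXLA2* fell by 0.99 on the log2 scale (SE 0.16, adjusted p = 0.0118). Of the 12 alpha-expansins tested, *EXPA16* fell, with a log2 fold change of -0.67 (SE 0.10, adjusted p = 0.0105). *EXPA1* (AT1G69530), an alpha-expansin expressed in leaves and guard cells, rose. It had 255, 336 and 351 CPM in PHD6-drought and 115, 141 and 159.8 CPM in WT-drought, so that the lowest transgenic library lay above the highest wild-type library. The log2 fold change was 1.19 (SE 0.14, adjusted p = 0.00749), and *EXPA1*, *EXPA16* and *EXLA1* kept their calls without any single library.

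**Figure D2:**
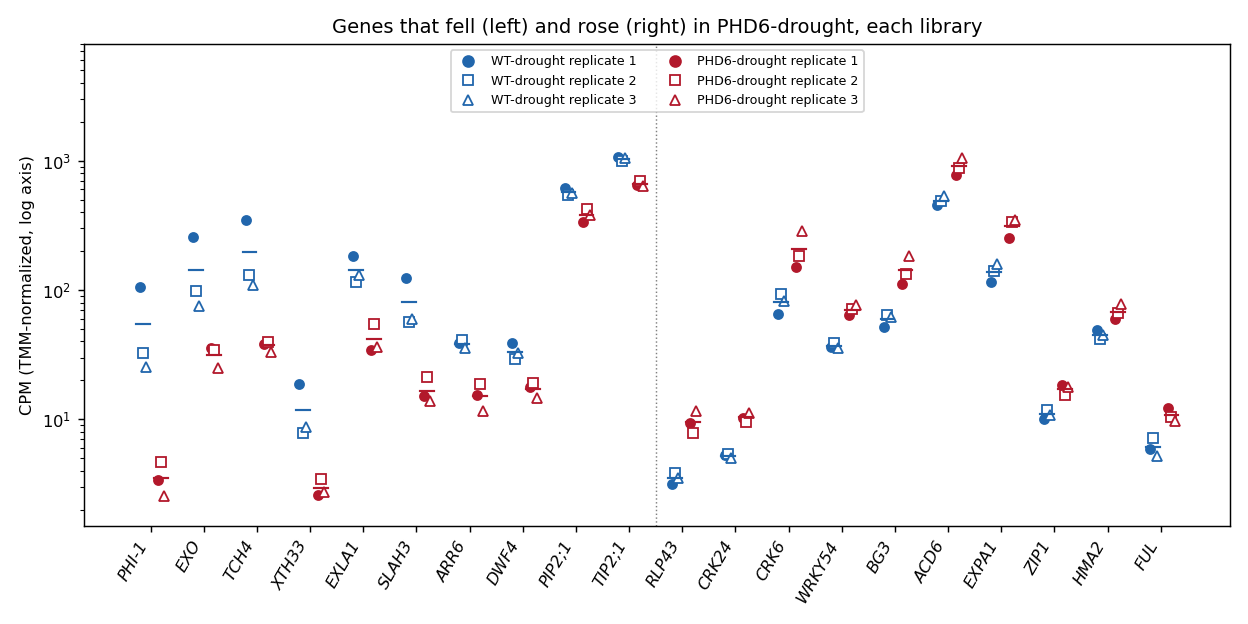
CPM on a log axis of 20 genes in each drought library, with blue symbols for WT-drought and red symbols for PHD6-drought, a symbol shape for each replicate and a short line at each group mean. Genes that fell stand left of the dotted line and genes that rose right of it. WT-drought replicate 1 (filled blue circles) is the highest library for *PHI-1*, *EXO*, *TCH4*, *XTH33*, *EXLA1* and *SLAH3*, and PHD6-drought replicate 3 (red triangles) is the highest for *CRK6*, *BG3* and *ACD6*.

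Some genes of growth hormone response and metabolism fell as well. Type-A response regulators are induced by cytokinin and dampen its signal, and all 7 of those tested were lower in PHD6-drought. The groups did not overlap in any of the 7, and did not overlap in 28.5% of all genes tested. The median log2 fold change was -0.55, and 4 of the 7 fell. *ARR6* (AT5G62920) had 39.3, 40.8 and 35.4 CPM in WT-drought and 15.3, 18.8 and 11.6 CPM in PHD6-drought. Wild-type libraries were close to each other here, and all lay above the highest transgenic library. The log2 fold change of *ARR6* was -1.32 (SE 0.15, adjusted p = 0.00749). *ARR5* had a log2 fold change of -0.61 (SE 0.08, adjusted p = 0.0086), and both stayed called without any single library. *ARR9* and *ARR4* fell by 0.55 and 0.38. Without single libraries the list held 2 to 6 calls, with 6 when PHD6-drought replicate 1 was left out. *DWF4* (AT3G50660), which catalyses a rate-limiting step of brassinosteroid synthesis, had 38.8, 29.2 and 32.3 CPM in WT-drought and 17.64, 19.1 and 14.5 CPM in PHD6-drought, for a log2 fold change of -0.95 (SE 0.13, adjusted p = 0.00848). *GA3OX1*, which makes active gibberellin, and *GA2OX2*, which breaks it down, fell by 0.77 and 0.48, so that 3 of 9 genes of the brassinosteroid and gibberellin list fell. Among 15 auxin response genes *IAA3* and *IAA14*, repressors of auxin response, fell with log2 fold changes of -0.87 and -0.69, while *IAA29*, of the same repressor family, rose by 1.36 (SE 0.26, adjusted p = 0.0209).

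Aquaporins, the water channels of the plasma membrane (PIP) and the vacuole (TIP), were lower in transgenic leaves. Of 18 tested, 17 had a negative log2 fold change and 7 fell, with a median of -0.32. *TIP2;1* (AT3G16240) had 1072, 988 and 1057 CPM in WT-drought and 644, 695 and 643 CPM in PHD6-drought. The groups were apart by more than their spread, and the log2 fold change was -0.64 (SE 0.07, adjusted p = 0.00749). *PIP2;1* (AT3G53420), a main plasma membrane channel of leaves, had 617, 542 and 567 CPM in WT-drought and 337, 426.5 and 379 CPM in PHD6-drought, for a log2 fold change of -0.59 (SE 0.10, adjusted p = 0.0129). *PIP2;7* and *PIP1;3* fell by 0.52 and 0.41, and *TIP1;2* by 0.34. *TIP2;1* was the single member called without any 1 library. Falls among aquaporins numbered 9 when PHD6-drought replicate 1 was omitted and 1 when WT-drought replicate 1 was omitted.

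Photosynthesis genes showed a small decrease that seldom passed the test. Of 34 photosystem and antenna genes 33 were lower, 3 fell, and the median was -0.24. All 14 Calvin cycle and carbonic anhydrase genes were lower, with a median of -0.22, and *CA1*, a chloroplast carbonic anhydrase, fell. *CA1* had 1504, 1852 and 1695 CPM in WT-drought and 1296, 1221 and 913 CPM in PHD6-drought, for a log2 fold change of -0.55 (SE 0.13, adjusted p = 0.0440). *PSAN*, a photosystem I subunit, fell by 0.41 (SE 0.09, adjusted p = 0.0313), and *CAB3*, an antenna protein counted outside that list, by 0.62 (SE 0.12, adjusted p = 0.0213). Reads of *CAB3* may be split with its near-identical neighbours. The calls of these genes rested on single libraries, since edgeR called no photosystem or Calvin cycle gene without PHD6-drought replicate 3, WT-drought replicate 1 or WT-drought replicate 3, while DESeq2 called 13 falls among the photosystem genes and 4 in the Calvin cycle with all libraries. Of 11 copper proteins and superoxide dismutases, *CSD2*, the chloroplast copper/zinc enzyme, and its copper chaperone *CCS* fell by 0.62 and 0.39. Both calls were lost without PHD6-drought replicate 2 or any one of the WT-drought libraries.

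Core ABA signalling gave few calls, from short lists. Among the 9 ABA receptors edgeR called 0, with 2 higher and 2 lower at an unadjusted p under 0.05, and DESeq2 called 1 rise and 1 fall. Over all 19681 genes tested, 2171 were higher and 2272 lower at that unadjusted p. *PYL8* had 95.9, 107 and 107 CPM in PHD6-drought and 69.6, 83.4 and 90.5 CPM in WT-drought, for a log2 fold change of 0.36 (SE 0.10, adjusted p = 0.0643). *PYL5* had a log2 fold change of -0.65 (SE 0.20, adjusted p = 0.0946). In the other lists 1 of 7 phosphatases, 1 of 8 kinases and transcription factors and 1 of 11 genes of ABA synthesis and breakdown fell. In these lists 0 rose. The shares called were 14.3, 12.5 and 9.09%, each from a single gene, while 6.53% of all genes tested were called in either direction. *PP2CA* (AT3G11410), a phosphatase that keeps ABA kinases off, had 88.8, 54.9 and 48.5 CPM in WT-drought and 34.5, 35.7 and 32.1 CPM in PHD6-drought, for a log2 fold change of -0.90 (SE 0.20, adjusted p = 0.0294). *OST1* (AT4G33950), the kinase that drives stomatal closure, had 30.9, 26.1 and 24.3 CPM in WT-drought and 15.1, 19.1 and 15.9 CPM in PHD6-drought. Its groups did not overlap and its log2 fold change was -0.69 (SE 0.12, adjusted p = 0.0157), with adjusted p = 0.0611 without WT-drought replicate 1. *ABA1*, zeaxanthin epoxidase of ABA synthesis, fell by 0.51. Outside the ABA lists, *P5CS1*, the rate-limiting enzyme of proline synthesis, fell by 0.36 (SE 0.09, adjusted p = 0.0435). Its call was lost without PHD6-drought replicate 2 or 3 or any one of the WT-drought libraries. *SLAH3* (AT5G24030), an anion channel also outside these lists, had 124, 56.7 and 59.5 CPM in WT-drought and 15.2, 21.1 and 13.8 CPM in PHD6-drought. Its log2 fold change was -2.25 (SE 0.30, adjusted p = 0.00835).

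Marker genes of dehydration and cold gave no call among 23 tested with edgeR, where 2 were higher and 7 lower at an unadjusted p under 0.05, and DESeq2 called 1 rise and 5 falls. *COR15B*, a chloroplast protein of freezing tolerance, had a log2 fold change of -0.64 (SE 0.19, adjusted p = 0.0752), and *LTI78* (RD29A) one of 0.45 (SE 0.15, adjusted p = 0.104) with overlapping groups. Guard cell markers and channels gave 0 calls of 9 with edgeR, 0 at an unadjusted p under 0.05 and 0 with DESeq2. Among 15 genes of cuticular wax *CER3*, *KCS1* and *MYB96*, of alkane synthesis, fatty acid elongation and their regulation, fell by 0.45, 0.48 and 0.47. *MAH1*, the hydroxylase of the last steps of wax synthesis, had 13.5, 4.24 and 8.71 CPM in PHD6-drought and 2.39, 3.36 and 0.956 CPM in WT-drought. The transgenic libraries were all higher but spread by more than 3-fold, and the log2 fold change was 1.96 (SE 0.46, adjusted p = 0.0398), with adjusted p up to 0.145 over the alternatives.

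Some of the genes that are switched on when leaves run short of sugar fell. Of 21 sugar starvation and darkness genes 8 fell, 1 rose and 19 were lower, with a median of -0.44. *TPS8* and *TPS11*, of the trehalose phosphate synthase family, fell by 0.98 and 0.58. *STP1*, a monosaccharide transporter, had 761, 663 and 729 CPM in WT-drought and 435, 521 and 448 CPM in PHD6-drought, for a log2 fold change of -0.61 (SE 0.09, adjusted p = 0.0098). *DIN10*, of the raffinose synthase family, was at 1185 (WT-drought replicate 1), 943 and 1041 CPM in wild-type libraries and at 581, 661 and 515 CPM in transgenic libraries. In the 5 calls that needed no particular library, which were *DIN10*, *TPS8*, *TPS11*, *STP1* and *BT2*, the direction was down. Of 21 touch and rapid wound response genes *TCH4*, *MYB44* and *CML24* fell, although 14 of the 21 were higher and the median was 0.12.

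Some cell surface receptors of immunity rose. Receptor-like proteins carry leucine-rich repeats outside the cell and no kinase inside, and several recognise fragments of microbes. Of 44 tested, 17 rose and 36 were higher, with a median log2 fold change of 0.54. *RLP43* (AT3G28890) had 9.44, 7.78 and 11.6 CPM in PHD6-drought and 3.17, 3.86 and 3.51 CPM in WT-drought, for a log2 fold change of 1.45 (SE 0.18, adjusted p = 0.00749). *RLP38* (AT3G23120) had 52.0, 46.9 and 63.0 CPM in PHD6-drought and 25.8, 27.25 and 29.9 CPM in WT-drought. In both genes every transgenic library lay above every wild-type library, as in all genes called as rises. The log2 fold change of *RLP38* was 0.97 (SE 0.11, adjusted p = 0.00749), and *RLP37*, its neighbour on chromosome 3, and *RLP32* rose by 0.78 and 0.60. These 4 genes were called without any single library. Leaving out PHD6-drought replicate 1 gave 24 rises in the family, and leaving out WT-drought replicate 1 gave 5. In watered plants the median of the family was 0.18, with 0 rises and 0 falls.

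Cysteine-rich receptor-like kinases are membrane kinases induced by salicylic acid and oxidative stress. Of 35 tested, 10 rose and 3 fell, with a median of 0.61. *CRK6* (AT4G23140) had 151, 184 and 287 CPM in PHD6-drought and 65.8, 93.9 and 81.8 CPM in WT-drought, for a log2 fold change of 1.37 (SE 0.22, adjusted p = 0.0112). PHD6-drought replicate 3 was the highest, and without WT-drought replicate 1 the adjusted p was 0.0523. *CRK24* (AT4G23320) had 10.2, 9.59 and 11.2 CPM in PHD6-drought and 5.27, 5.37 and 5.05 CPM in WT-drought, with little spread in either group. Its log2 fold change was 0.99 (SE 0.12, adjusted p = 0.00749), and it was called without any single library. *CRK36* and *CRK5* rose by 1.13 and 0.63. *CRK5*, *CRK6*, *CRK7* and *CRK8* lie side by side on chromosome 4, and reads of such near-identical copies may be split between them. Rises in this family numbered 20 when PHD6-drought replicate 1 was omitted and 1 when WT-drought replicate 1 was omitted. In watered plants the median of the family was 0.93, with 8 rises and 0 falls.

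The promoters of these receptor genes were read to show which known letters stand before them. The window was the 250 bases before the annotated gene start in TAIR10.1 (RefSeq), read 5′ to 3′ on the strand of the gene, and capitals mark the W-box core, TTGAC on either strand (so GTCAA on the other), which WRKY factors bind. *RLP43*, *CRK5* and *CRK24* are receptor genes that rose, and *PHI-1*, *EXO* and *ARR6* are genes that fell, shown to compare.
RLP43, chr3:10898901-10899150, minus strand: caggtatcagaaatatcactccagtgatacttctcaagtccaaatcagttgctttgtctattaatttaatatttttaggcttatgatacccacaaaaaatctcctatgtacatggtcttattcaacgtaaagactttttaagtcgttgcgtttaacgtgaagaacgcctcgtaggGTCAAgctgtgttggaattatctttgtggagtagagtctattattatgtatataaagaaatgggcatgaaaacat
CRK5, chr4:12120221-12120470, minus strand: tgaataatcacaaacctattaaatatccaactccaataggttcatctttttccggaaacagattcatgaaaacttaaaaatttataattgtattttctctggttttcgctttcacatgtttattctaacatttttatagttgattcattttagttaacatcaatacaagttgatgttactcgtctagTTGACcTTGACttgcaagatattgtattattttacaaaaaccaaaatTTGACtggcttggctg
CRK24, chr4:12191705-12191954, minus strand: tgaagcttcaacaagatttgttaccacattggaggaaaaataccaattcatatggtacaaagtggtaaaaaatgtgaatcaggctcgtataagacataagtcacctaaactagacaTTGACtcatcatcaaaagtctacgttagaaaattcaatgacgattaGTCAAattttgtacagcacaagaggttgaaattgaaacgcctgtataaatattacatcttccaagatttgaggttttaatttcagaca
PHI-1, chr1:12851733-12851982, plus strand: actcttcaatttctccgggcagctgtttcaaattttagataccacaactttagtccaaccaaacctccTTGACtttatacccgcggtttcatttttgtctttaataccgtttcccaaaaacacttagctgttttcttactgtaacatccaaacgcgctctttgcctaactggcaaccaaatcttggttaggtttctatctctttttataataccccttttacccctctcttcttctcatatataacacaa
EXO, chr4:5739969-5740218, plus strand: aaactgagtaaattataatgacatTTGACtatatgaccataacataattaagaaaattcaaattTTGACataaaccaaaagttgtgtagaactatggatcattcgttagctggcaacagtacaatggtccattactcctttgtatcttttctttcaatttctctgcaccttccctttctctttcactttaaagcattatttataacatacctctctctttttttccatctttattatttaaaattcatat
ARR6, chr5:25254319-25254568, minus strand: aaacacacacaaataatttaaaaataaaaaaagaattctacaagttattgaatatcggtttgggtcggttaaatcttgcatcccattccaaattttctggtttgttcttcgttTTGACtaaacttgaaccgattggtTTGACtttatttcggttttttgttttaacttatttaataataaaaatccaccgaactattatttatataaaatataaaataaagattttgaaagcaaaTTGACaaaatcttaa
The core stood in 15 of the 17 promoters of receptor-like protein genes that rose and in 18 of the 27 of that family that were not called. In the cysteine-rich kinases it stood in 10 of 10 promoters of genes that rose, 14 of 22 of those not called and 1 of 3 of those that fell. Other lists were mixed. The core stood in 3 of 7 WRKY genes that rose against 24 of 43 not called, and in 4 of 7 aquaporins that fell against 4 of 11 not called. Among xyloglucan enzymes it stood in 2 of 6 that fell against 8 of 15 not called. Promoters of all genes that rose held it in 56.2%, those of genes that fell in 40.8%, and those of all genes tested in 44.6%. Among genes called without any single library the shares were 65.6% for rises and 49.7% for falls. The printed sequences show that a single gene's letters do not sort the directions, since *ARR6* carries 3 cores and *EXO* 2, as many as or more than *RLP43* with 1. Family members share sequence by descent, so their promoters are not independent of each other, and a match is a string of letters and not a site shown to be bound.

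The other motifs were rarer than the W-box core among all genes tested. The TATCCA element stood in 17.8% of promoters of genes that fell, 15.5% of those that rose and 14.3% of all tested. The evening element AAATATCT, known from clock-controlled genes, stood in 8.24% of promoters of genes that fell and 5.05% of all tested. Site II, TGGGCC, was in 7.97% of promoters of genes that fell, 12.3% of those that rose and 16.6% of all tested. Among genes called without any single library it was in 4.7% of falls and 4.92% of rises. The ABRE core ACGTG (23.0% of all tested, 25.3% of rises and 25.5% of falls), which overlaps the G-box CACGTG (7.24, 5.18 and 9.41% in the same order), and the DRE core CCGAC (12.9, 11.9 and 13.1%) were closer to their shares over all genes. The Alfin1 site, GTGGNG or GNGGTG, first described for the alfalfa protein, stood in 22.7% of promoters of all genes tested, 25.5% of those that rose and 26.4% of those that fell. The CGCG box core CGCGT stood in 7.47, 6.53 and 7.71% of the same sets. Each motif was searched on both strands, and no test was made of these shares.

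Defence genes of the salicylic acid pathway were higher in transgenic leaves. Of 26 tested, 25 had a positive log2 fold change and 5 rose, with a median of 0.49. *WRKY54* (AT2G40750), a WRKY factor of salicylic acid signalling, had 63.8, 70.8 and 77.2 CPM in PHD6-drought and 36.1, 38.7 and 35.6 CPM in WT-drought, for a log2 fold change of 0.95 (SE 0.08, adjusted p = 0.00749). *BG3* (AT3G57240), a pathogenesis-related beta-glucanase, had 112, 133 and 183 CPM in PHD6-drought and 51.9, 64.2 and 61.5 CPM in WT-drought. Each transgenic library was higher than each wild-type library, and the log2 fold change of *BG3* was 1.28 (SE 0.16, adjusted p = 0.00774). *NIMIN1*, an inhibitor of the salicylic acid co-activator NPR1, rose by 0.64 (SE 0.12, adjusted p = 0.0188). The median of the list was 0.23, 0.28 and 0.93 above the wild-type mean in PHD6-drought replicates 1 to 3 on the log2(CPM + 1) scale, and between -0.05 and 0.02 in the wild-type libraries. Its number of rises lay between 3, without any one of the WT-drought libraries, and 16, without PHD6-drought replicate 1. The list was also higher with the transgene in watered plants, where its median was 1.29, with 10 rises and 0 falls.

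Smaller shares of the WRKY factors and intracellular receptors rose. Of 51 WRKY genes tested, 7 rose and 1 fell, with a median of 0.31, and *WRKY58*, *WRKY47* and *WRKY60* rose by 0.71, 0.82 and 0.69. Of 70 intracellular TIR-NBS-LRR receptors 8 rose and 2 fell, with a median of 0.21. AT5G45000 rose by 0.82 (SE 0.17, adjusted p = 0.0246). AT4G19530 went the other way, with 224, 171 and 161 CPM in WT-drought and 92.7, 92.1 and 83.5 CPM in PHD6-drought. The groups did not overlap, and its log2 fold change of -1.04 (SE 0.12, adjusted p = 0.00749) held without any single library. Without WT-drought replicate 1 or 2, edgeR called none of the 70 as a rise, and 2 of the WRKY genes. In watered plants 25 of the 70 rose (median 0.36) and 12 of the 51 WRKY genes rose (median 0.21), with 0 falls in either list. Of 11 endoplasmic reticulum chaperones all 11 were higher and *CRT3*, a calreticulin needed for immune receptor folding, rose by 0.66 (SE 0.16, adjusted p = 0.0435). The call of *CRT3* was lost without PHD6-drought replicate 2 or 3 or any one of the WT-drought libraries.

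Single genes outside these families rose as clearly. *RK1* (AT1G65790), a receptor kinase, had 44.6, 57.6 and 68.7 CPM in PHD6-drought and 24.2, 26.95 and 27.8 CPM in WT-drought, and *MLO3* (AT3G45290), of the family whose barley relative governs powdery mildew susceptibility, had 20.55, 18.1 and 27.0 CPM in PHD6-drought and 8.01, 11.5 and 8.98 CPM in WT-drought. Their log2 fold changes were 1.12 (SE 0.14, adjusted p = 0.00758) and 1.21 (SE 0.17, adjusted p = 0.00932). *SDR4*, a short-chain dehydrogenase, and *FH19*, a formin that shapes actin filaments, rose by 1.40 and 1.23. All 4 were called without any single library. Among the genes also measured by qRT-PCR in these plants, 8 of 11 rose. That list was chosen on these samples, so its count is not independent evidence. AT5G59680, a leucine-rich repeat kinase among them, had a log2 fold change of 1.03 (SE 0.15, adjusted p = 0.00932).

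**Figure D3:**
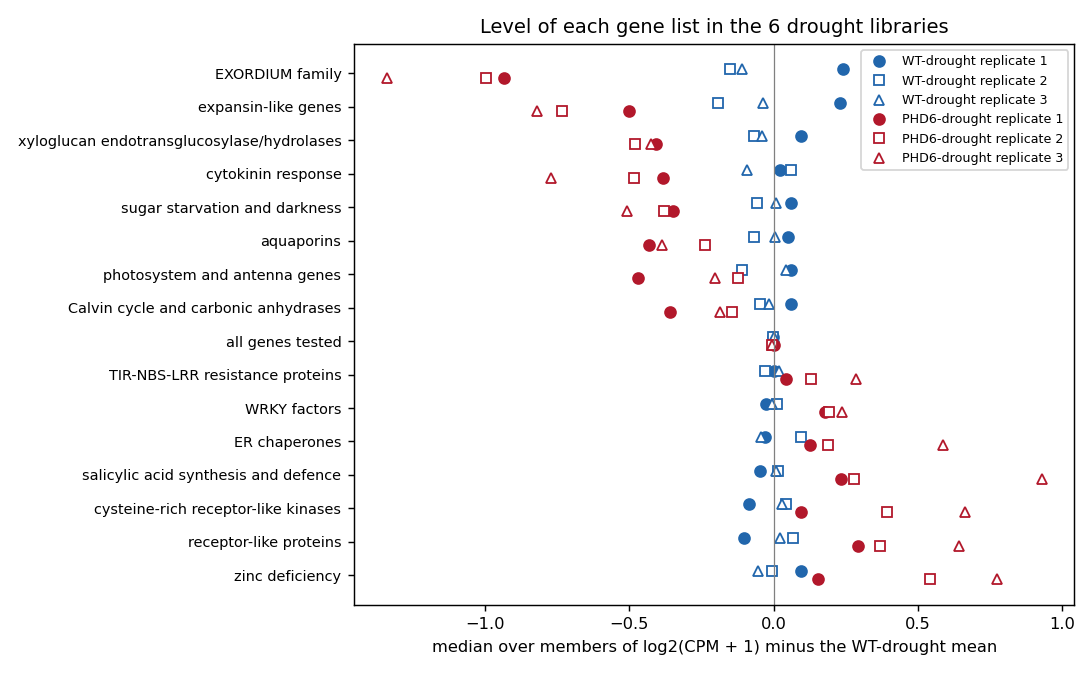
Median over the tested members of each list of log2(CPM + 1) in each drought library, less the mean of the WT-drought libraries, with blue symbols for WT-drought and red for PHD6-drought. The EXORDIUM, expansin-like, xyloglucan enzyme, cytokinin, sugar starvation and aquaporin lists lie left of 0 in all 3 transgenic libraries. Immune and zinc lists lie right of 0, farthest in PHD6-drought replicate 3, and the median of all genes tested stays within 0.01 of 0.

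Most genes of the zinc deficiency list were higher in the transgenic plants under drought. The list is named for transporters that are induced when plants lack zinc. Of 11 zinc deficiency genes tested, 9 were higher and 3 rose, with a median of 0.63. In watered plants the median of the list was -0.29, with 0 rises and 1 fall. *ZIP1* (AT3G12750) had 18.3, 15.3 and 17.8 CPM in PHD6-drought and 10.11, 11.9 and 10.7 CPM in WT-drought, for a log2 fold change of 0.66 (SE 0.11, adjusted p = 0.0129). *HMA2*, a zinc pump that loads the xylem, had 59.4, 66.0 and 77.7 CPM in PHD6-drought and 49.3, 41.4 and 44.7 CPM in WT-drought, for a log2 fold change of 0.59 (SE 0.11, adjusted p = 0.0173). Neither gene overlapped between the groups. *ZIP5* rose by 0.73, and *IRT3* had a log2 fold change of 0.63 (SE 0.17, adjusted p = 0.0642) with overlapping groups. The list held 1 call without PHD6-drought replicate 2 or any one of the wild-type libraries and 7 without PHD6-drought replicate 1. Iron genes gave 0 calls of 9 with edgeR and with DESeq2, and 1 at an unadjusted p under 0.05.

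Of 7 flowering time genes 3 rose. *FUL*, a MADS factor of the floral transition, had 12.3, 10.5 and 9.69 CPM in PHD6-drought and 5.91, 7.18 and 5.21 CPM in WT-drought, for a log2 fold change of 0.83 (SE 0.15, adjusted p = 0.0181). *SOC1*, another integrator of flowering signals, rose by 0.34 (SE 0.07, adjusted p = 0.0307). *FT*, which encodes the mobile flowering signal, was at 1.15, 0.840 and 0.876 CPM in PHD6-drought and at 0.440, 0.252 and 0.319 CPM in WT-drought, and its call (adjusted p = 0.0445) was lost whichever library was left out. Without PHD6-drought replicate 2, WT-drought replicate 1 or WT-drought replicate 3 edgeR called none of the 3, with adjusted p between 0.0554 and 0.0846 for *FUL* and between 0.0903 and 0.105 for *SOC1*. All 8 flower markers had a positive log2 fold change, but the groups overlapped in each of them and edgeR called 0. At an unadjusted p under 0.05 there were 2, and DESeq2 called 1. Their summed level was 26.1, 26.0 and 14.6 CPM in PHD6-drought and 9.72, 13.9 and 16.8 CPM in WT-drought, so that the groups overlapped. *AP3* ran from 0.329 to 2.01 CPM in the transgenic and from 0.0977 to 0.797 CPM in the wild-type libraries. The 4 shoot meristem markers summed to 37.9, 26.4 and 17.5 CPM in PHD6-drought and to 11.3, 26.2 and 24.2 CPM in WT-drought, nearly all from *STM* and *KNAT1*, with *WUS* and *CLV3* at or near 0. Their part in the rise of the flowering genes was not tested.

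A few further genes are of use to other work with these plants. *UBQ10*, a common reference gene of qRT-PCR, had 1519, 2053 and 2258 CPM in PHD6-drought and 1195, 1298 and 1435 CPM in WT-drought, and rose by 0.58 (SE 0.14, adjusted p = 0.0408), though its adjusted p reached 0.166 without WT-drought replicate 1. Of the 7 native Alfin-like genes *AL3* rose by 0.32 (SE 0.07, adjusted p = 0.0262). *GOLS2*, of galactinol synthesis, rose by 1.03 (SE 0.23, adjusted p = 0.0315) and *HSFA2*, a heat stress factor, by 1.41 (SE 0.35, adjusted p = 0.0459). The calls of *AL3* and *HSFA2* were lost without PHD6-drought replicate 2 or 3 or any one of the WT-drought libraries. That of *GOLS2* was lost without PHD6-drought replicate 2 or 3 or WT-drought replicate 1 or 2. Of 12 ERF and DREB factors of stress *ERF2* and *ERF8* rose by 0.72 and 0.41. Jasmonate genes were split, with *VSP1* higher by 1.13 (SE 0.25, adjusted p = 0.0340) and *AOS*, of jasmonate synthesis, lower, at a log2 fold change of -0.68 (SE 0.15, adjusted p = 0.0348).

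The transgene was also measured in watered plants, and that comparison shares no library with the drought comparison. There 839 genes rose (4.26% of genes tested) and 142 fell (0.722%). Of the 765 genes that fell under drought, 573 had a fold change of the opposite sign in watered plants and 247 rose there, which is 32.3% of the falls and 29.4% of the 839. Of the 521 genes that rose under drought, 95 had a fold change of the opposite sign in watered plants. Of these 521, 64 also rose in watered plants, 12.3% of the rises and 7.63% of the 839. The median log2 fold change in watered plants was 0.24 for the falls, 0.37 for the rises and -0.02 over all genes tested. The 247 lay between 186 and 239 when single watered libraries were left out. The 64 rested on single libraries and fell to 8 when WT-control replicate 3 was omitted, to 32 when WT-control replicate 1 was, and to 23 and 22 when PHD6-control replicate 1 or 3 was.

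**Figure D4:**
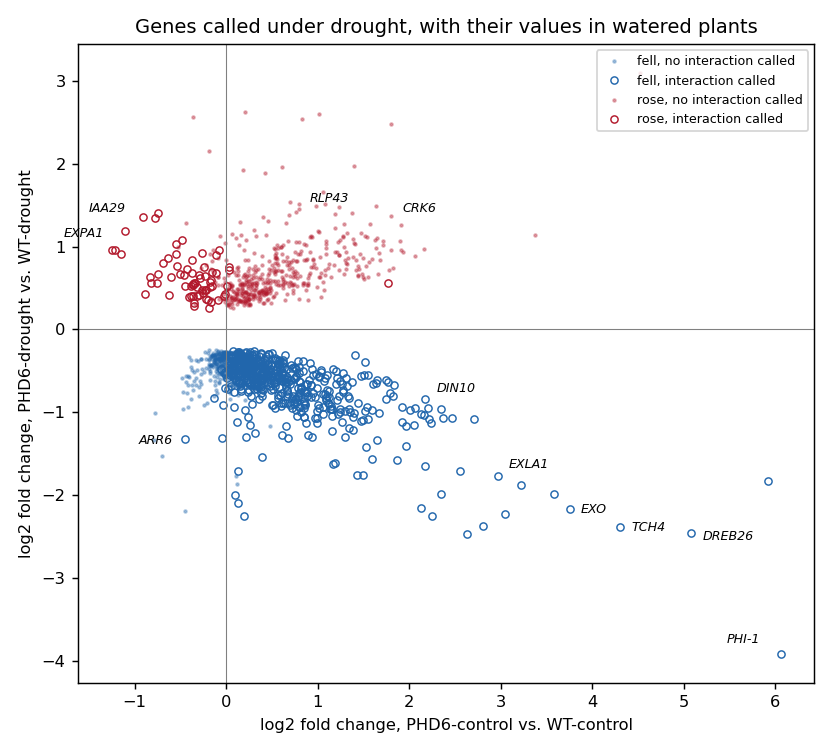
Log2 fold change of PHD6-drought over WT-drought (vertical) against that of PHD6-control over WT-control (horizontal) for each of the 1286 genes called under drought, blue for falls and red for rises. Open circles mark genes called in the interaction test. Falls spread to the right, up to *PHI-1* at 6.06 in watered plants and -3.91 under drought, while *EXPA1* and *IAA29* lie at the upper left.

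The interaction test compared the transgene's effect under drought with that in watered plants over all 12 libraries. It called 1373 genes (6.98% of genes tested), 1102 with a lower effect under drought and 271 with a higher one. Among genes called under drought it passed for 507 of the 765 falls and 67 of the 521 rises. A gene that it did not call was not shown to have equal effects. The interaction test uses the same drought libraries as the calls above and so is not independent of them. *PHI-1* had a log2 fold change of 6.06 (SE 0.25, adjusted p = 6.13e-05) in watered plants, and its effect under drought was lower by 9.99. *TCH4* and *EXO* likewise were raised in watered plants, by 4.31 and 3.75, and fell under drought. *ARR5* rose in watered plants by 0.71 (SE 0.07) and *OST1* had a value of 0.48 (SE 0.16, adjusted p = 0.168) there. *EXPA1* was the reverse, with a log2 fold change of -1.11 (SE 0.19, adjusted p = 0.0128) in watered plants. Of the receptor genes, *RLP43* and *CRK6* had log2 fold changes of 0.79 (SE 0.44) and 1.80 (SE 0.41) in watered plants, and the interaction passed for neither (adjusted p = 0.528 and 0.736). Among aquaporins *TIP2;1* had a log2 fold change of 0.14 (SE 0.19) in watered plants with an interaction of -0.80 (adjusted p = 0.0457), whereas for *PIP2;1*, at -0.02 (SE 0.18), it did not pass (adjusted p = 0.188).

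**Figure D5:**
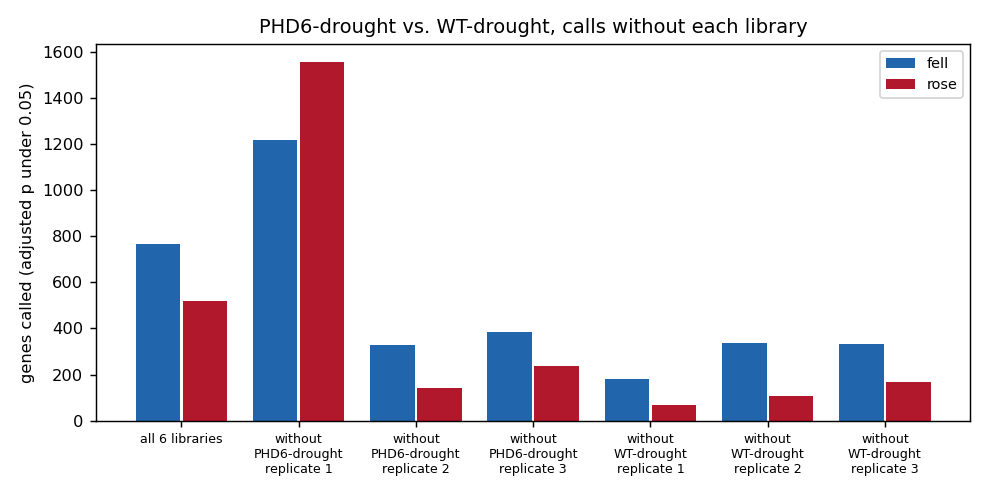
Number of genes that fell (blue) or rose (red) in PHD6-drought against WT-drought, with all 6 libraries and without each library in turn. Rises are fewest (68) when WT-drought replicate 1 is omitted and most (1557) when PHD6-drought replicate 1 is, and falls are 181 and 1218 in the same settings.

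The calls leaned on single libraries in a regular way. Within its group, PHD6-drought replicate 3 was the library farthest from the wild type in 85.8% of the genes that rose. WT-drought replicate 1 was the farthest from the transgenic group in 75.8% of the genes that fell and in 66.0% of those that rose. Leaving this library out gave 68 rises and 181 falls, and leaving out PHD6-drought replicate 1 gave 1557 and 1218. Omitting PHD6-drought replicate 2 left 142 rises and 329 falls, and omitting replicate 3 of that group left 238 and 385. Omitting WT-drought replicate 2 left 109 rises and 337 falls, and omitting WT-drought replicate 3 left 169 and 332. The labels do not say whether replicates came from separate plants. The study's text calls them biological replicates and describes leaf samples taken from several containers of plants. How the containers map to the libraries is not given, so the p-values measure the spread between these libraries. In whole leaves, fewer cells of a type and less RNA per cell cannot be told apart.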

How the data were processed

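The values are counts of reads per gene that the authors deposited for 12 libraries as raw, whole numbers, after alignment by HISAT2 2.0.5 and counting by featureCounts 1.5.0-p3. Strand use and the genome build are not given in the sources used here, so overlapping genes on opposite strands may not be told apart. Positions are those of TAIR10.1, whose gene positions equal those in the supplementary tables for 334 of 334 genes compared. The 2021 entries without a gene name (0.421 to 0.463% of counts in the drought libraries) were left out.

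In R 4.3.3, edgeR 4.0.16 (TMM, low counts filtered by filterByExpr at min.count 10 given the 4 groups, quasi-likelihood F-test, Benjamini-Hochberg adjustment over 19681 genes) was fitted to the 6 drought libraries, and to all 12 for the interaction. The steps were tested on simulated counts. Alternatives were DESeq2 1.42.0, other scalings and filters, all 12 libraries, a replicate block, organelle genes left out, the study's thresholds and leaving out each library. Leaving out libraries in the interaction and in watered plants was chosen after seeing the data. Median library values use log2(CPM + 1).

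Members and gene lists were chosen with earlier results of these data known, and no list was tested as a set. Family lists were matched by symbol or description. CDPK-related kinases named CRK, and PSAT and PSAT1, were removed from their lists as members of other families after the values were seen. Named genes are the 12 largest rises and falls with at least 5 CPM in a group and no overlap, the 8 largest that held without any 1 library, the 6 with the highest CPM in each direction, the members of each list that ranked lowest in p (at most 4), and the genes of the study's qRT-PCR. *BT2*, *CRK8* and the cell type markers are outside this rule and were named after their values were seen.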

Additional observations from a re-analysis of the deposited data

Results flagged for a closer look

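The transgene's effect differed between drought and watered plants for 1373 genes in the interaction test over all 12 libraries (edgeR, adjusted p under 0.05), and for 53 of the 109 genes examined by name. The values below are the log2 fold change under drought less that in watered plants. It was negative for 45 of the 53. Among cell wall and growth genes it was -9.99 for *PHI-1*, -5.94 for *EXO*, -2.9983 for *EXL5*, -2.65 for *EXL3*, -6.71 for *TCH4*, -4.35 for *XTH33*, -1.94 for *XTH17*, -2.21 for *XTH16*, -1.000037 for *XTH6*, -4.75 for *EXLA1* and -2.30 for *EXLA2*. Hormone genes had -0.89 for *ARR6*, -1.33 for *ARR5*, -0.62 for *ARR9*, -0.77 for *ARR4*, -1.68 for *DWF4*, -1.66 for *GA2OX2*, -1.74 for *IAA3* and -0.75 for *IAA14*. In ABA signalling and transport the difference was -2.04 for *PP2CA*, -1.18 for *OST1*, -2.76 for *PYL5* and -4.51 for *SLAH3*, against 0.51 for *PYL8*.

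Aquaporins had -0.80 for *TIP2;1*, -0.72 for *PIP2;7* and -0.75 for *PIP1;3*. Sugar starvation genes had -3.03 for *DIN10*, -2.51 for *TPS8*, -1.60 for *TPS11*, -2.27 for *STP1* and -1.88 for *BT2*. Touch genes had -3.02 for *CML24* and -3.15 for *MYB44*, wax genes -0.70 for *CER3*, -1.20 for *MYB96* and -0.94 for *KCS1*, clock genes -1.27 for *CDF1* and -0.60 for *LUX*, and copper genes -0.77 for *CSD2* and -0.59 for *CCS*. The transcription factor *DREB26* had -7.55, the intracellular receptor AT4G19530 -1.83, the peroxidase AT3G28200 -2.10, AT1G50040 -5.19 and the protease-like AT4G16563 -5.28. The difference was positive for *EXPA1* (2.28), *IAA29* (2.26), *HSFA2* (2.16) and the zinc genes *ZIP1* (0.94), *HMA2* (0.75), *ZIP5* (1.14) and *IRT3* (1.30). These genes were in part chosen for large values in the same drought libraries, so the sizes are a description.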

How the results depend on the processing

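Log2 fold changes of the 109 named genes kept their sign in 1631 of 1631 comparisons with the alternatives. That count says little about robustness. The study's thresholds reuse the same fit, and 99 of the genes were called in these same libraries, so a sign could hardly change. Of the 99 called, 38 kept their call without any single library. Counts of genes moved as well. Genes that rose numbered 821 with DESeq2, 300 with all 12 libraries fitted together, and 189 at the study's thresholds, against 521, and ran from 68 to 1557 when single libraries were left out. Genes that fell numbered 148 at the study's thresholds and 181 to 1218 without single libraries, against 765. List members that rose or fell numbered 233 with DESeq2, 84 with all 12 libraries and 60 at the study's thresholds, and 38 to 278 without single libraries, against 144. Genes called in the interaction ran from 988 to 1372 without single libraries, and the genes that rose both under drought and in watered plants from 8 to 65. With a replicate block 434 genes rose and 458 fell. Replicate numbers did not pair the libraries, whose same-numbered deviations correlated at -0.153, -0.108 and -0.078. The cause of these differences was not tested. With 3 libraries a group and 18065154 to 23384147 counts each, small changes of genes at a few CPM could not be separated from the spread between libraries.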

Other observations

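Ribosomal protein genes, of which 309 were tested, had a median log2 fold change of -0.02 under drought with 1 rise. Genes annotated as histone superfamily had 24 of 28 members with a positive log2 fold change and a median of 0.15, and 1 rose. Genes of flavonoid synthesis and of aliphatic glucosinolates, compounds of pigment and herbivore defence, had medians of 0.18 over 17 genes and 0.11 over 16, and edgeR called 0 in either list, with 2 and 3 at an unadjusted p under 0.05 and 0 and 1 called by DESeq2. Of 31 genes annotated as peroxidase superfamily AT3G28200 fell, from 70.6, 56.3 and 61.3 CPM in WT-drought to 28.4, 35.3 and 28.4 CPM in PHD6-drought, a log2 fold change of -1.02 (SE 0.11, adjusted p = 0.00749 from edgeR), called also without any single library. *CDF1*, a repressor of flowering under clock control, had 9.04, 6.59 and 5.68 CPM in WT-drought and 2.65, 3.49 and 2.35 CPM in PHD6-drought, a log2 fold change of -1.31 (SE 0.22, adjusted p = 0.0141), and *LUX*, of the evening complex, fell by 0.49, while 18 of 20 clock genes were not called.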
